A study of Mus musculus with 24 samples.

Results

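The genes described here encode the molecules that show peptides to T cells, followed across sorted cells of the mouse olfactory mucosa, whole mucosa and bulbectomised mice. They were every gene whose symbol starts with H2- together with Cd74, B2m, Tap1, Tap2, Tapbp, Psmb8, Psmb9, Psmb10, Ciita, Nlrc5, Ctss and Ifi30. That rule found 51 genes with 88 probes among the 19057 genes named on the array, and it used no measured value. Of these, 32 passed the filter on detection in the mucosal samples and were tested. Another 7 were detected too rarely in mucosa to be tested, and 12 were not detected on any of the 24 arrays.

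RNA was measured on Illumina bead arrays in 8 groups of 3 replicates, and mice were 8 to 12 weeks old with 2 to 7 animals pooled in each mucosal replicate. OM was live (PI-negative) cells of the whole olfactory mucosa from wildtype F1 hybrids of 129S1/SvImJ and C57BL/6J. Sox2GBC was GFP-low cells, negative for E-cadherin and CD54 and low in light scatter, from ∆Sox2-GFP mice crossed to FVB/NJ, and is labelled as globose basal cells, the proliferating progenitors of the epithelium. Sus was GFP-high, CD54-negative cells of the same cross and is labelled as sustentacular cells, which support and detoxify the epithelium. Neurog1-Ctrl and Neurog1-OBX were GFP-positive, low-scatter cells of a Neurog1-GFP line crossed to FVB/NJ, a transgene active in neuronal precursors. OMP and OMP-OBX were GFP-positive, low-scatter cells of ∆OMP-GFP mice crossed to CD-1, in which GFP marks mature olfactory sensory neurons. OBX groups came from the mucosa on the side of a unilateral olfactory bulb removal 3 weeks earlier, and all reporter mice were heterozygous, controls included. mREF was a commercial pool of RNA from 11 mouse cell lines, so its arrays are technical repeats. Mouse line, and with it the H2 haplotype of the strain, differs between most groups and cannot be told apart from cell stage, except in the comparisons of Sus with Sox2GBC and of each OBX group with its own control.

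Class I molecules consist of a heavy chain (H2-K1 and H2-D1, and the less variable class Ib chains of the H2-Q, H2-T and H2-M families) and the light chain B2m. They carry peptides that the immunoproteasome subunits Psmb8, Psmb9 and Psmb10 cut, that Tap1 and Tap2 pump into the endoplasmic reticulum and that Tapbp helps to load. Class II molecules pair an alpha and a beta chain, are guided by the invariant chain Cd74 and loaded with the help of H2-DM, and are made mainly by dendritic cells, macrophages and B cells under the control of Ciita. In the vomeronasal organ of mice, H2-M10 genes are known from a subset of sensory neurons.

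Promoters of 6 of these genes are shown because they carry the DNA words from which class I and class II genes are known to be switched on, and because their genes stand for the patterns that follow. Each is 300 bases, from 250 before the RefSeq start to 50 after it, taken from RefSeq on GRCm38.p6 and written along the gene. Capitals mark matches to CTGATTGG, the Y box with its flank (on the other strand CCAATCAG), AACNGATG, an X box core (CATCNGTT), TGACGTCA, a cyclic AMP response element, GGGATTCCC, a kappa B core of class I promoters (GGGAATCCC), and GAAANNGAA, the core of an interferon-stimulated response element (TTCNNTTTC).
H2-Aa, chr17:34287774-34288073, minus strand: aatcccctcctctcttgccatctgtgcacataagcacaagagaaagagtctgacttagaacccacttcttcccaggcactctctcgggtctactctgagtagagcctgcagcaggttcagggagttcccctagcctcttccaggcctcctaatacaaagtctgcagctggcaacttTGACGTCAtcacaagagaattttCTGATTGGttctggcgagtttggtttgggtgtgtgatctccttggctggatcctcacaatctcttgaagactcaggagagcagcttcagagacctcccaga
H2-Eb1, chr17:34305617-34305916, plus strand: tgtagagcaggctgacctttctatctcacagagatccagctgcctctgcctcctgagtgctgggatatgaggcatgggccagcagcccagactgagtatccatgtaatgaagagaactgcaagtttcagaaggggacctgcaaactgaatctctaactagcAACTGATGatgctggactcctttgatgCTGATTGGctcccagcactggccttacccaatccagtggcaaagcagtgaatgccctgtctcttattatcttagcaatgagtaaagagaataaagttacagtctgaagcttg
H2-D1, chr17:35262844-35263143, plus strand: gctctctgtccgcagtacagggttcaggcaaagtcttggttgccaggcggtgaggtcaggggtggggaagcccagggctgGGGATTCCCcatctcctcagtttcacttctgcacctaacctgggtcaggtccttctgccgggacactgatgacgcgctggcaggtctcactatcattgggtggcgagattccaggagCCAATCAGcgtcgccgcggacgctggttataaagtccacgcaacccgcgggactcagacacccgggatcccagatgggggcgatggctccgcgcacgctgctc
B2m, chr2:122147437-122147736, plus strand: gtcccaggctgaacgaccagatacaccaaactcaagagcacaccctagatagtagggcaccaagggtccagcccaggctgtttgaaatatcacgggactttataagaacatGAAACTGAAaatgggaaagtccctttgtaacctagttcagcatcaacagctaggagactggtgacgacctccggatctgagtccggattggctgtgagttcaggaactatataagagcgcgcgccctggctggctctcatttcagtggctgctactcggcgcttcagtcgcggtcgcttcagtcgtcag
H2-T23, chr17:36032652-36032951, minus strand: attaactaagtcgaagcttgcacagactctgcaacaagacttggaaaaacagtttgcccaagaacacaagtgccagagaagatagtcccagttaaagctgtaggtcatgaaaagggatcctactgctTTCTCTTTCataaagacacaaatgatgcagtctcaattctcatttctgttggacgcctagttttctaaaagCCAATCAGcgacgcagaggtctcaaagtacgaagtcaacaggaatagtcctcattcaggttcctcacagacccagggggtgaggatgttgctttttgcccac
H2-M10.6, chr17:36811925-36812224, plus strand: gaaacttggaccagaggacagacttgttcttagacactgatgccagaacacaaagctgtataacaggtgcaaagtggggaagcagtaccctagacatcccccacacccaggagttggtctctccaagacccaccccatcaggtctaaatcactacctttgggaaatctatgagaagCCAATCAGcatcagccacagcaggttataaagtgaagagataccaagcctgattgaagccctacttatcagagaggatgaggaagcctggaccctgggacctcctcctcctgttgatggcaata

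The RefSeq promoters used gave 41 windows for 38 of the 51 genes. Both strands were searched, and the words do not overlap one another in the sequences shown. The Y box word was found in 21 of the 41 windows, belonging to 19 genes, and in 4.1% of all 32851 windows of the same length. H2-Aa, H2-Eb1, H2-D1, H2-T23 and H2-M10.6 all carry it. The X box core was found in Ctss, H2-DMb1, H2-DMb2, H2-Eb1, H2-Eb2 and H2-M10.4 and in 2.32% of all windows, and the palindromic response element in H2-Aa alone among these genes and in 1.79% of all windows. The kappa B word was found in 5 windows of 4 genes, H2-D1, H2-K1, H2-Q6 and H2-Q7, and in 116 windows in all (0.353%). The interferon element core was found in B2m, Ctss, H2-T22 and H2-T23 and in 8.56% of all windows. The words were chosen with these promoters in view, and a match is a string of letters, not a measured site.

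Levels are given as log2 intensity after background correction and quantile normalization, so that each unit is a doubling, and they compare samples for 1 gene but not genes with each other. A probe counts as detected on an array at a deposited detection p-value under 0.01. Mean intensity per array ran from 215 to 722, 33.9% to 48.3% of probes were detected, and replicates of a group correlated at 0.95 to 0.99 over 12495 genes. Differences are log2 values ± SE from limma, fitted over all 11870 genes of the mucosal arrays, and a gene is called at a Benjamini-Hochberg adjusted p under 0.05. If no array of the dimmer group detected the probe, only a bound on the fold can be given, worded as at least that many fold. Replicates of the mucosal groups are separate pools of mice, so p-values between these groups measure the spread between pools. The mREF arrays are technical repeats, so p-values against mREF hold no such spread on that side. All groups are bulk samples, in which fewer cells of a type and less RNA per cell cannot be told apart.

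The class II chains were high in whole mucosa and low in every sort. H2-Ab1, a beta chain, had log2 levels of 11.49, 12.03 and 12.26 in OM, 8.26, 5.04 and 7.83 in Sox2GBC, 6.20, 6.94 and 6.41 in Neurog1-Ctrl, 6.92, 8.05 and 7.0 in OMP, and 8.95, 7.71 and 6.24 in Sus. All 12 arrays of these sorts lay below all OM arrays, and the second Sox2GBC array had no detected H2-Ab1. The log2 difference of H2-Ab1 from OM was -4.88 ± 0.68 in Sox2GBC, -5.41 ± 0.68 in Neurog1-Ctrl, -4.60 ± 0.68 in OMP and -4.29 ± 0.68 in Sus (adjusted p = 3.36e-05, 8.13e-06, 0.000132 and 3.79e-05). H2-Aa, the alpha chain that pairs with it, had levels of 10.09, 9.46 and 9.59 in OM and between 4.58 and 6.75 in these sorts, where it was detected on 1 Sox2GBC, 1 OMP and 2 Sus arrays. In Neurog1-Ctrl it was not detected on any array and was at least 13.71-fold lower than in OM (adjusted p = 2.81e-07).

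H2-Eb1, the beta chain of the second class II molecule, separated the sorts from one another as well. Its levels were 10.68, 11.31 and 11.17 in OM, 8.10, 7.70 and 7.31 in Sox2GBC, 6.30, 7.0 and 6.74 in OMP, and 6.86, 6.28 and 4.89 in Sus, the last not detected. On the 3 Neurog1-Ctrl arrays it was 4.69, 4.56 and 4.57 and not detected, at least 34.63-fold below OM (adjusted p = 7.34e-09). Every Sox2GBC array lay above every Neurog1-Ctrl, OMP and Sus array. In Sus, H2-Eb1 differed by -1.69 ± 0.42 from Sox2GBC of the same cross (adjusted p = 0.00214). Neurog1-Ctrl was at least 3.4-fold below Sox2GBC (adjusted p = 8.6e-05). H2-Eb1 was at least 1.671-fold higher in OMP than in Neurog1-Ctrl (adjusted p = 0.000738). The remaining chains, H2-Ea and H2-Eb2, were not tested, since H2-Ea was detected on 2 mucosal arrays and H2-Eb2 on 0.

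Cd74, the invariant chain, remained well detected in every sort although it was far lower than in whole mucosa. Its levels were 11.47, 12.51 and 12.92 in OM, 8.93, 9.12 and 8.39 in Sox2GBC, 7.0, 8.27 and 7.40 in Neurog1-Ctrl, 7.81, 8.78 and 7.60 in OMP, and 9.63, 8.87 and 8.10 in Sus. Its differences from OM were -3.48 ± 0.45, -4.74 ± 0.45, -4.24 ± 0.45 and -3.43 ± 0.45 in these 4 sorts (adjusted p = 1.39e-05, 3.97e-07, 5.46e-06 and 3.82e-06). Sus and Sox2GBC overlapped, with a difference of 0.05 ± 0.45 (adjusted p = 0.937).

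**Figure D1:**
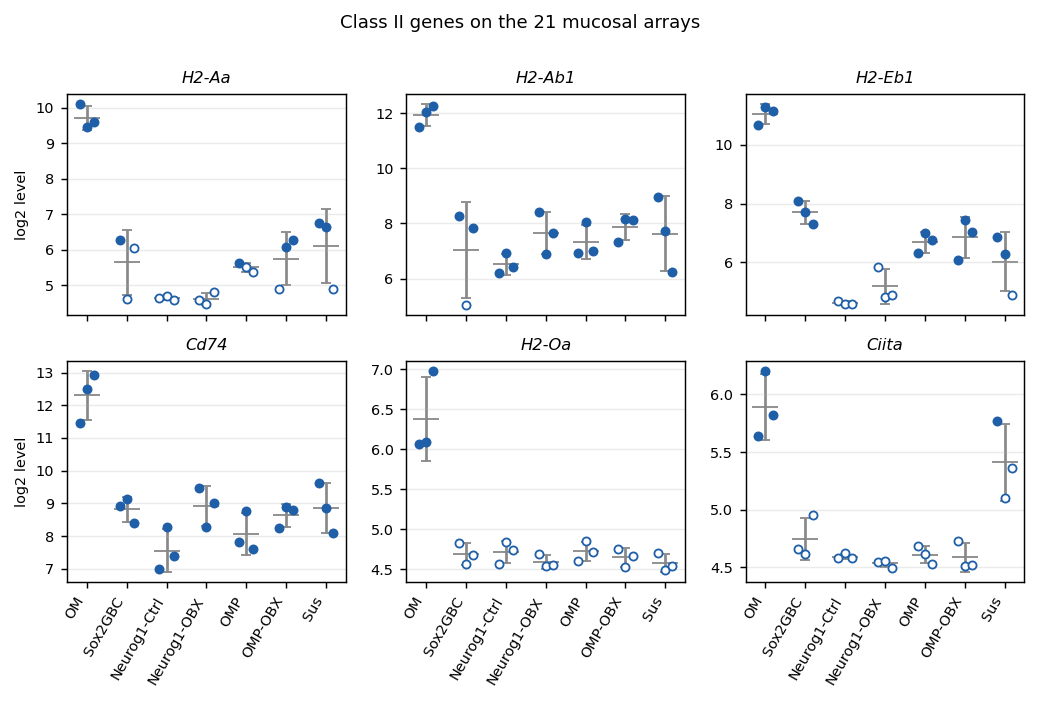
Log2 intensity of H2-Aa, H2-Ab1, H2-Eb1, Cd74, H2-Oa and Ciita (vertical axes) on each array of the 7 mucosal groups (horizontal axes). Points are arrays, open where the probe was not detected, and bars are the mean ± SD of 3 arrays. OM lies above all sorts for the class II chains and Cd74, with H2-Ab1 at 11.49 to 12.26 in OM.

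Among the loading factors, H2-DMa and H2-DMb1, the chains of the peptide exchanger H2-DM, had smaller differences from OM than the class II chains. H2-DMa had levels of 8.56, 9.81 and 9.96 in OM, 7.62, 7.20 and 7.02 in Sox2GBC, 7.47, 7.33 and 7.44 in Neurog1-Ctrl, 8.26, 8.32 and 8.93 in OMP, and 8.94, 8.97 and 8.64 in Sus. The differences from OM were -2.16 ± 0.29 in Sox2GBC and -2.03 ± 0.29 in Neurog1-Ctrl (adjusted p = 2.02e-05 and 2.56e-05). OMP and Sus arrays overlapped those of OM. H2-DMa differed between Sus and OM by -0.60 ± 0.29 (adjusted p = 0.0953). In OMP the difference of -0.94 ± 0.29 was called (adjusted p = 0.0264) but not without OM replicate 2 or 3 or OMP replicate 1 or 2, with an adjusted p of up to 0.137 without OM replicate 3. H2-DMb1 differed from OM by -2.23 ± 0.37 in Sox2GBC and -2.49 ± 0.37 in Neurog1-Ctrl (adjusted p = 0.000176 and 4.16e-05). H2-DMb2 differed from OM by -1.84 ± 0.37 in Sox2GBC and -1.74 ± 0.37 in Sus (adjusted p = 0.000905 and 0.000672), where its other probe gave -1.32 and -2.64. Between Sus and OMP it differed by -1.64 ± 0.37 (adjusted p = 0.00078), and by -2.58 with the other probe. The probes disagreed in Neurog1-Ctrl. The brightest probe ran from 9.04 to 9.22 in Neurog1-Ctrl against 8.40 to 10.42 in OM, a difference of -0.60 ± 0.37 (adjusted p = 0.216), while its other probe gave -2.16.

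H2-Oa, a chain of the H2-DM antagonist H2-O, was detected in OM alone. Its OM levels were 6.06, 6.09 and 6.98, and none of the other 18 mucosal arrays detected it. It was at least 1.262-fold lower in Sox2GBC, 1.355-fold in Neurog1-Ctrl, 1.697-fold in OMP and 1.567-fold in Sus. H2-Oa passed the filter on detection through the OM arrays alone, so it had to be lower in the sorts, and these values are a description. Ciita, the master regulator of class II genes, had OM levels of 5.64, 6.20 and 5.82 and was detected on 1 array of the sorts, Sus replicate 1, at 5.77. Ciita met the filter on detection only with the OM arrays, so its lower level in Sox2GBC, Neurog1-Ctrl and OMP is a description as well. The bound in OMP was at least 1.21-fold. Detection limits in Sox2GBC and Neurog1-Ctrl were too high to give a fold. In Sus the difference of -0.48 ± 0.18 (adjusted p = 0.0355) was not called without OM replicate 2 or 3 or Sus replicate 2 or 3, with an adjusted p of 0.195 without OM replicate 2.

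Over all roles, 21 of the 32 tested genes were lower and 2 higher in Sox2GBC than in OM, where 32.8% of all genes were called, 15.9% lower and 16.9% higher. The median difference of the 32 genes was -1.06 beside 0.02 over all genes. In Neurog1-Ctrl 24 were lower and 0 higher, with 36.7% of all genes called, 18.3% lower and 18.4% higher, and medians of -1.30 and 0.06. In OMP 18 were lower and 0 higher, with 20.5% of all genes called, 13% lower and 7.51% higher, and medians of -1.07 and 0.07. In Sus 11 were lower and 3 higher, with 48.5% of all genes called, 25.2% lower and 23.3% higher, and medians of -0.13 and 0.01. The shares of called members were thus 71.9%, 75%, 56.2% and 43.8%, above the share of all genes in the first 3 sorts and close to it in Sus. These 4 comparisons share the OM arrays. The lower genes include H2-Oa and Ciita in all 4 sorts, H2-M3 in the first 3 and Tap1 in Neurog1-Ctrl. Those genes met the filter on detection only with the OM arrays, so their place in the counts is no result. H2-T10, among the genes higher in Sus, met it only with the Sus arrays. Without OM replicate 2 the count of called members was 15 in Sox2GBC and 9 in Sus, and it was also 15 without Sox2GBC replicate 3. The lowest counts with 1 array left out were 17 in Neurog1-Ctrl and 12 in OMP.

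Most tested markers of myeloid and dendritic cells were lower in the sorts than in OM, as the class II chains were. Of the 25 genes of that list 16 were tested, and all 16 were lower than in OM in Sox2GBC, Neurog1-Ctrl and OMP and 15 were lower in Sus, with medians of -2.37, -3.35, -2.81 and -2.78. Their summed intensity was 21460 to 27620 in OM, 4617 to 8661 in Sox2GBC, 1358 to 2691 in Neurog1-Ctrl, 2018 to 4160 in OMP and 7733 to 10800 in Sus. The sums add linear intensities, so bright markers weigh most in them. All 16 were detected on each OM array and 3 to 10 of them on an array of these sorts, with 3 to 5 on a Sus array. The 3 OM arrays alone were enough for the filter on detection. A marker detected in OM only had to be lower in the sorts, so these counts are a description. Fcer1g, an Fc receptor chain, differed from OM by -3.82 ± 0.40 in OMP and -4.01 ± 0.40 in Sus (adjusted p = 5.46e-06 and 1.64e-07) and was not detected in Sox2GBC or Neurog1-Ctrl. Ptprc, Itgam, Itgax, Flt3, Cybb, Cd209a and Ccr2 were detected too rarely to be tested. Of the B cell list 2 of 9 genes were tested, and both were lower than in OM in Sox2GBC, Neurog1-Ctrl and OMP and neither was called in Sus. No Sox2GBC, Neurog1-Ctrl or OMP array detected either gene. Both met the filter on detection only with OM and Sus arrays, so their lower levels are a description. Lower levels than in OM were not particular to these lists. All 5 horizontal basal cell genes were lower in Sox2GBC, Neurog1-Ctrl, OMP and Sus, with medians of -2.29, -3.87, -2.25 and -3.90. The part of any of these cell types in the class II differences was not tested.

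**Figure D2:**
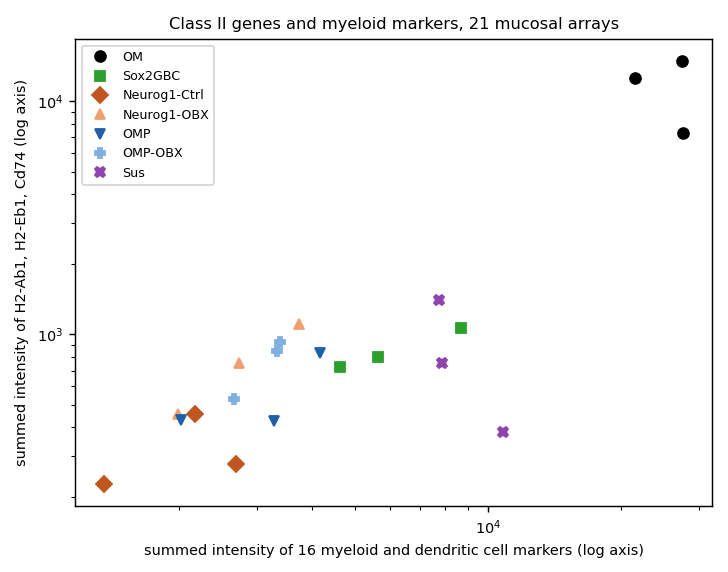
Summed intensity of H2-Ab1, H2-Eb1 and Cd74 (vertical axis, log scale) against summed intensity of 16 myeloid and dendritic cell markers (horizontal axis, log scale) on the 21 mucosal arrays, coloured by group. OM arrays lie apart at the upper right, at 7335 to 14950 and 21460 to 27620, and Sox2GBC and Sus lie to the right of the neuronal sorts, between 4617 and 10800 for the myeloid markers. Sums add linear intensities, so bright genes weigh most, and 3 to 5 of the 16 markers were detected on a Sus array.

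The 3 class II genes H2-Ab1, H2-Eb1 and Cd74 summed to 379.6 to 1399 in Sus and 723.1 to 1068 in Sox2GBC, which overlap. Summed myeloid markers went from 4617 to 8661 in Sox2GBC and from 7733 to 10800 in Sus, which overlap as well. Of the 16 markers, 2 were higher and 3 lower in Sus, where 52% of all genes were called, 23.1% higher and 28.8% lower. Across the 21 arrays, the genes most like the mean log2 level of H2-Aa, H2-Ab1 and H2-Eb1 in Pearson correlation were S100a9 (r = 0.96) and S100a8 (r = 0.95), both abundant in neutrophils. They were followed by Ccnd2, Ncf4, Mrc1, Gmfg, Fcer1g and P2ry13 (0.93 to 0.91). Cd74 had r = 0.92, H2-Oa 0.88 and Ciita 0.78. These points share arrays and rest on the gap between OM and the sorts. Over the 18 arrays without OM the first genes outside the family were Zfp869 (0.86) and Wdr46 (0.83), and Cd74 had 0.59.

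H2-D1, H2-K1 and B2m, genes of classical class I molecules, were higher in Sus than in Sox2GBC and OMP. H2-D1, a classical heavy chain, had levels of 11.33, 11.88 and 11.83 in Sus, 9.89, 10.76 and 11.43 in OM, 9.90, 9.98 and 9.15 in Sox2GBC, 9.19, 9.76 and 9.62 in Neurog1-Ctrl, and 8.51, 9.35 and 7.97 in OMP. Sus arrays lay above all arrays of the other sorts and overlapped OM. H2-D1 was higher in Sus than in Sox2GBC of the same cross by 2.0 ± 0.36 (adjusted p = 0.000124) and than in OMP by 3.07 ± 0.36 (adjusted p = 5.16e-07). Against OM the difference was 0.99 ± 0.36 (adjusted p = 0.0307). That call was lost without OM replicate 1 or 2 or Sus replicate 2 or 3, and the value was 0.58 (adjusted p = 0.179) without OM replicate 1.

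B2m, the light chain of all class I molecules, had levels of 11.52, 11.28 and 11.61 in Sus, 10.71, 11.26 and 10.36 in Sox2GBC, 10.87, 10.98 and 11.00 in Neurog1-Ctrl, 9.39, 9.84 and 9.61 in OMP, and 10.99, 11.85 and 12.13 in OM. OMP was the lowest group and none of its arrays reached another group's. B2m in OMP differed by -2.04 ± 0.25 from OM (adjusted p = 2.69e-05) and by -1.34 ± 0.25 from Neurog1-Ctrl (adjusted p = 0.00045), and it was higher in Sus than in OMP by 1.85 ± 0.25 (adjusted p = 3.37e-06). Sus and OM differed by -0.19 ± 0.25 (adjusted p = 0.568). The difference between Sus and Sox2GBC, 0.69 ± 0.25 (adjusted p = 0.0281), was not called without Sox2GBC replicate 1 or 3 or Sus replicate 1 or 3, with 0.49 (adjusted p = 0.154) without Sox2GBC replicate 3. The lower B2m of Sox2GBC and Neurog1-Ctrl than of OM, -0.88 ± 0.25 and -0.71 ± 0.25 (adjusted p = 0.0118 and 0.036), was lost without OM replicate 3, at -0.67 (adjusted p = 0.0804) in Sox2GBC without its replicate 3 and -0.47 (adjusted p = 0.185) in Neurog1-Ctrl without OM replicate 3. The same call was lost in Neurog1-Ctrl without OM replicate 2 or any of its own replicates.

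H2-K1, the other classical heavy chain, was read by a probe that many arrays barely detected. Its levels were 9.31, 9.99 and 7.78 in Sus, 8.00, 5.19 and 7.01 in Sox2GBC, 5.39, 5.84 and 5.98 in Neurog1-Ctrl and 6.03, 6.00 and 5.75 in OMP. It was higher in Sus than in OMP by 3.10 ± 0.56 (adjusted p = 7.7e-05). The difference between Sus and Sox2GBC was 2.29 ± 0.56 (adjusted p = 0.00185), although the third Sus array lay below the first Sox2GBC array, and a second probe gave 0.71. Against OM the difference of Sus was 1.64 (adjusted p = 0.02), lost without OM replicate 2 or Sus replicate 1 or 2, at 1.16 (adjusted p = 0.126) without Sus replicate 2. H2-K1, H2-D1 and the H2-Q and H2-T genes are near-identical in parts, so signal may be shared between their probes and the assignment to 1 gene is uncertain.

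Over all roles, 17 of the 32 genes were higher and 3 lower in Sus than in Sox2GBC, where 52% of all genes were called, 23.1% higher and 28.8% lower. The median difference was 0.85 beside -0.12 over all genes. The members called, 62.5%, exceeded the background share mainly on the higher side. Against OMP, 16 were higher and 3 lower in Sus, with 59.9% of all genes called, 29% higher and 30.9% lower, and medians of 0.72 and -0.02. The share of members called was 59.4%, near that of all genes, but the split between higher and lower was uneven. Both comparisons share the Sus arrays. The higher genes include H2-T10 in both comparisons and H2-Q6 against OMP, which met the filter on detection only with the Sus arrays. With each array left out in turn, 15 of the 20 calls against Sox2GBC and 16 of the 19 against OMP were made every time. The calls lost against Sox2GBC were those of B2m, H2-DMb1, H2-Ke6, H2-T10 and Psmb9, and those lost against OMP were H2-Ke6, H2-Q6 and Psmb8.

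**Figure D3:**
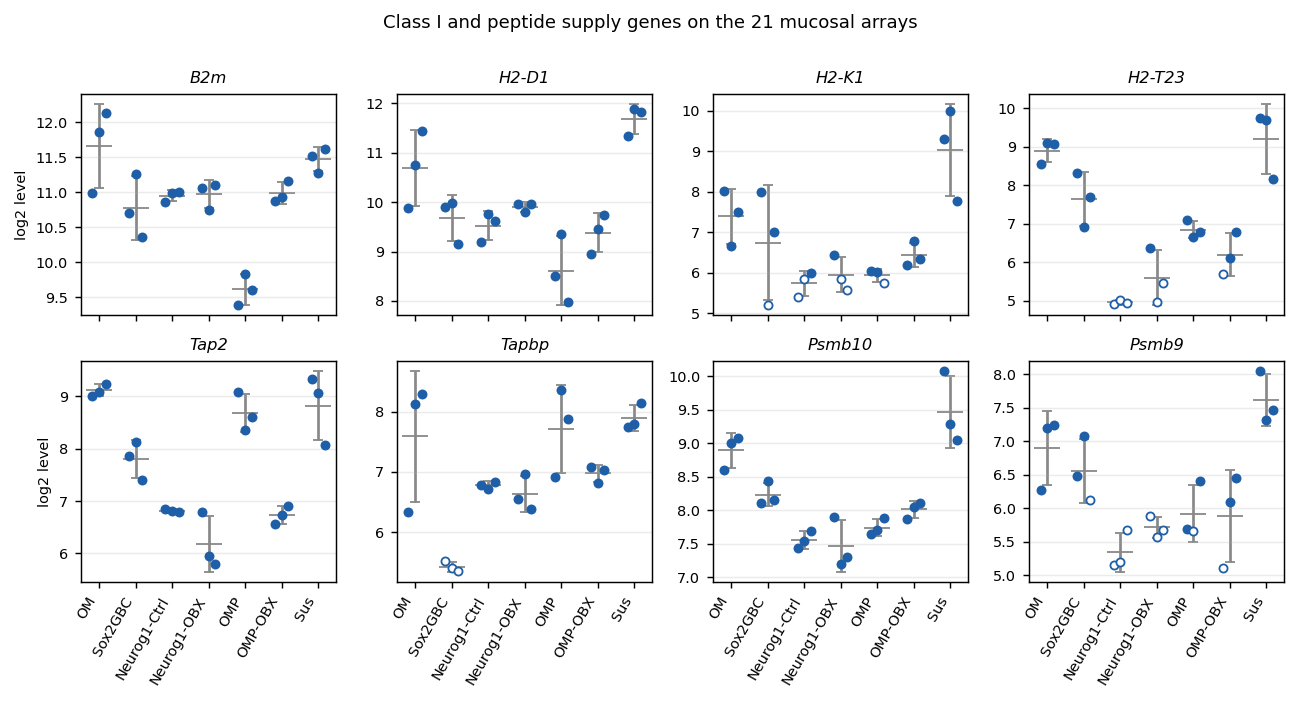
Log2 intensity of B2m, H2-D1, H2-K1, H2-T23, Tap2, Tapbp, Psmb10 and Psmb9 (vertical axes) on each array of the 7 mucosal groups (horizontal axes), drawn as points that are open where the probe was not detected, with the mean ± SD of 3 arrays. Sus has the highest H2-D1 among the sorts, 11.33 to 11.88, and OMP the lowest B2m, 9.39 to 9.84.

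Of the 6 genes that supply peptides to class I molecules, Psmb10, Psmb9, Tap2 and Tapbp were higher in Sus than in Sox2GBC, Psmb10, Psmb9 and Psmb8 were higher in Sus than in OMP, and 0 were called between Sus and OM. Psmb10, an immunoproteasome subunit, had levels of 10.08, 9.29 and 9.05 in Sus, 8.60, 9.01 and 9.09 in OM, 8.11, 8.44 and 8.16 in Sox2GBC, 7.43, 7.55 and 7.69 in Neurog1-Ctrl and 7.64, 7.71 and 7.88 in OMP. All Sus arrays lay above all arrays of the other sorts. Psmb10 was higher in Sus than in Sox2GBC by 1.24 ± 0.24 (adjusted p = 0.000207) and than in OMP by 1.73 ± 0.24. Psmb9, its partner subunit, was 8.05, 7.32 and 7.47 in Sus and 6.48, 7.07 and 6.12 in Sox2GBC, the last not detected. The difference of 1.06 ± 0.34 (adjusted p = 0.0144) was not called without Sox2GBC replicate 3 or Sus replicate 1, at 0.84 (adjusted p = 0.079) without the first of these. Psmb8, the third subunit, differed between Sus and Sox2GBC by 0.95 (adjusted p = 0.0775).

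Tapbp, which bridges class I molecules to the peptide pump, was not detected on any Sox2GBC array, where its level was 5.51, 5.41 and 5.35. Its levels were 7.75, 7.80 and 8.14 in Sus, 6.79, 6.72 and 6.84 in Neurog1-Ctrl, 6.92, 8.36 and 7.87 in OMP and 6.34, 8.13 and 8.30 in OM. Tapbp was at least 3.614-fold higher in Sus than in Sox2GBC (adjusted p = 2.41e-05) and at least 2.922-fold higher in OM (adjusted p = 0.000312). A second, dimmer probe of the gene was detected on 2 Sus arrays and on no Sox2GBC or OM array. Tap2, a subunit of the pump, was 9.32, 9.07 and 8.07 in Sus and 7.86, 8.12 and 7.41 in Sox2GBC, which overlap. The difference was 1.02 ± 0.30 (adjusted p = 0.00685). Tap1, its partner subunit, was detected on 4 of the 21 mucosal arrays, and its difference of 0.52 was not called (adjusted p = 0.143). Between Sus and OMP the differences of Tap2, 0.14 ± 0.30, and Tapbp, 0.18 ± 0.38, were not called (adjusted p = 0.706 and 0.707).

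Of the loading genes, H2-DMa, H2-DMb1 and Ifi30 were also higher in Sus than in Sox2GBC. H2-Ab1, H2-Aa and Cd74 were not called, and H2-Eb1 was lower, at -1.69. H2-DMb1 was higher by 1.12, a call lost without Sox2GBC replicate 2 or 3 or Sus replicate 1. H2-DMa was higher by 1.57 ± 0.29 (adjusted p = 0.000141). Ifi30, a reductase that opens disulfide bonds of antigens in lysosomes, was 8.45, 8.07 and 8.95 in Sus and 6.67, 7.45 and 7.31 in Sox2GBC, higher by 1.34 ± 0.31 (adjusted p = 0.00124). Ciita was called as well (adjusted p = 0.00423), but it was detected on 1 Sus array and no Sox2GBC array, and no fold can be given. H2-Ab1 differed by 0.59 (adjusted p = 0.491) and H2-Aa by 0.46 (adjusted p = 0.409).

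Other genes of the pathway were counted from a list of 37 genes outside the family, of which 29 were tested. Against OM 9 of them were lower and 3 higher in Sox2GBC, 9 and 3 in Neurog1-Ctrl, 10 and 0 in OMP, and 5 and 6 in Sus. Of all genes 32.8%, 36.7%, 20.5% and 48.5% were called in these comparisons. In Sus, 11 of the 29 were higher and 3 lower than in Sox2GBC, with a median of 0.41. There 52% of all genes were called and their median was -0.12. Fcgrt, the class I-like receptor for immunoglobulin G, was higher by 2.77 ± 0.41 and Psme1, an activator subunit of the proteasome, by 1.37 ± 0.18 (adjusted p = 1.26e-05 and 4.13e-06). Creb1, one of the factors that bind the cyclic AMP response element, was lower, at -2.34 ± 0.29 (adjusted p = 1.7e-06). Of 30 genes known to respond to interferon 18 were tested, and 8 were higher and 2 lower in Sus than in Sox2GBC, a share called near the 52% of all genes, with a median of 0.69 beside -0.12. Irf1, a transcription factor of that response, was higher by 3.62 ± 0.35, Isg15 by 2.23 ± 0.29 and Irf9 by 2.14 ± 0.18 (adjusted p = 1.23e-07, 3.21e-06 and 5.23e-08). Against OMP 10 of the 18 were higher in Sus and 2 lower, with 59.9% of all genes called and medians of 1.09 and -0.02. Ifit2, an interferon-induced RNA-binding protein, was lower in Sus, at -3.59 ± 0.25 (adjusted p = 4.73e-10). Summed sustentacular markers were 169000 to 180600 in Sus, 71140 to 108800 in Sox2GBC and 82690 to 140500 in OM. Mature neuron markers were 27760 to 31860 in Sus, 83360 to 107000 in Sox2GBC and 147800 to 166500 in OM. Markers of globose basal cells and precursors summed to 16420 to 22270 in Sox2GBC and 5614 to 20570 in Sus, which overlap. Of the 7 tested there, 3 were higher and 1 lower in Sus than in Sox2GBC.

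**Figure D4:**
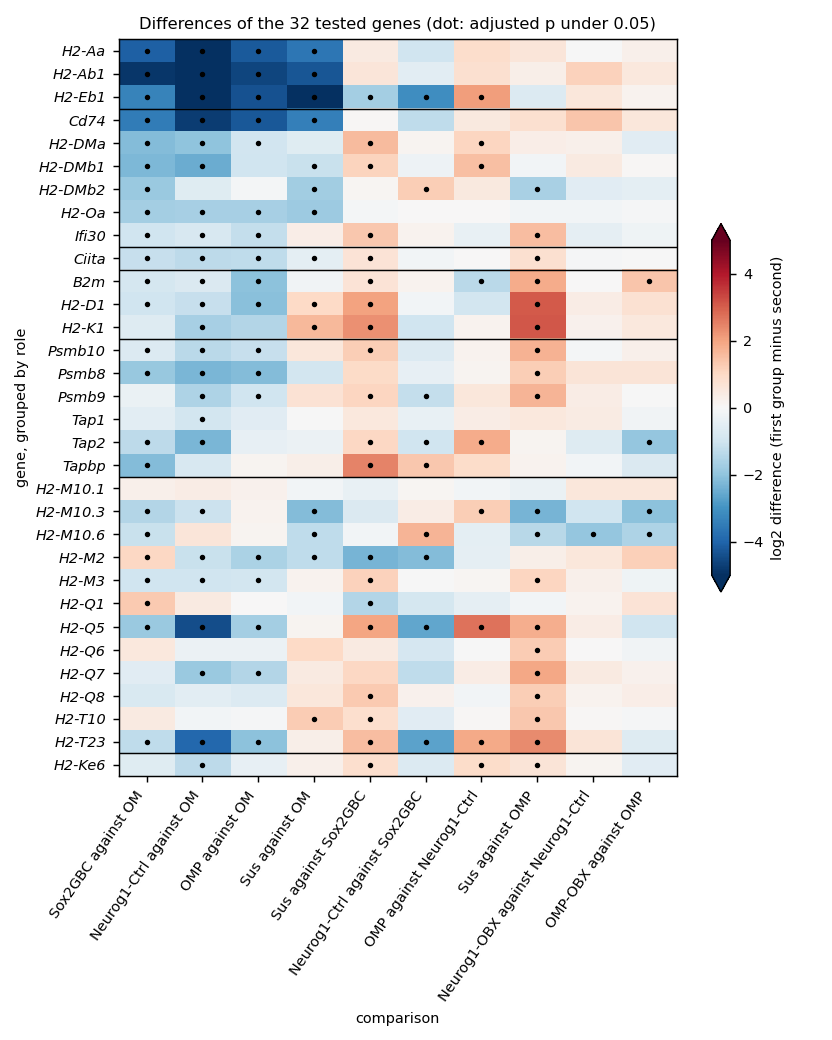
Log2 differences of the 32 tested genes (rows, by role) in 10 comparisons (columns), as colour on a scale from -5 to 5, with a dot where the adjusted p was under 0.05. The class II rows are strongly negative in the columns against OM, and most class I rows are positive where Sus is compared with Sox2GBC or OMP.

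Along the neuronal sorts, H2-Q5, H2-T23 and Tap2 were lower in Neurog1-Ctrl than in Sox2GBC and in OMP. From Sox2GBC to Neurog1-Ctrl, 3 of the 32 genes were higher and 6 lower, with 17% of all genes called, 7.98% higher and 9.03% lower, and medians of -0.47 and 0.00. The 9 members were 28.1% of those tested. The 3 higher genes were H2-M10.6, H2-DMb2 and Tapbp. Another probe gave -0.84 for H2-DMb2 and 0.08 for Tapbp, and both calls were lost with the mean of all kept probes. From Neurog1-Ctrl to OMP, 8 were higher and 1 lower, with 36% of all genes called, 17.9% higher and 18.1% lower, and medians of 0.28 and 0.02. The 9 members called there, again 28.1%, were a smaller share than that of all genes. The comparisons share the Neurog1-Ctrl arrays, and mouse line differs in both. Without Neurog1-Ctrl replicate 1, 5 genes were called between Sox2GBC and Neurog1-Ctrl, and with cyclic loess 2 were higher and 9 lower.

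H2-T23, a class Ib gene whose product is the ligand of the natural killer cell receptor NKG2A, dipped in Neurog1-Ctrl. Its levels were 8.32, 6.91 and 7.68 in Sox2GBC, 4.91, 5.03 and 4.95 in Neurog1-Ctrl, none of these detected, 7.09, 6.66 and 6.79 in OMP and 9.75, 9.68 and 8.15 in Sus. Neurog1-Ctrl was at least 3.249-fold below Sox2GBC, and H2-T23 was at least 1.876-fold higher in OMP than in Neurog1-Ctrl (adjusted p = 0.00171 for the latter). H2-Q5 had the same order, with 7.84, 6.39 and 8.03 in Sox2GBC, 4.66, 5.05 and 4.82 in Neurog1-Ctrl, none of these detected, 7.45, 7.32 and 7.93 in OMP and 10.27, 9.65 and 8.25 in Sus. Neurog1-Ctrl was at least 2.794-fold below Sox2GBC, and H2-Q5 was at least 3.095-fold higher in OMP than in Neurog1-Ctrl (adjusted p = 5.28e-05 for the latter). In whole mucosa H2-Q5 was 9.07 to 9.42 and H2-T23 8.54 to 9.09, and in Sus the differences from OM were 0.13 ± 0.42 and 0.30 ± 0.42 (adjusted p = 0.821 and 0.586).

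Tap2 and B2m differed in opposite directions between Neurog1-Ctrl and OMP. Tap2 was 6.85, 6.81 and 6.78 in Neurog1-Ctrl and 9.08, 8.36 and 8.61 in OMP, higher by 1.87 ± 0.30 (adjusted p = 7.52e-05), while B2m differed by -1.34 in the same comparison. Tap2 differed between Neurog1-Ctrl and Sox2GBC by -0.99 ± 0.30 (adjusted p = 0.0269). That call was lost without Sox2GBC replicate 1 or 2 or any Neurog1-Ctrl replicate, at -0.82 (adjusted p = 0.113) without Sox2GBC replicate 2, and with scaling to a common median, at -0.65 (adjusted p = 0.183). The difference of OMP from OM in Tap2 was not called, at -0.43 ± 0.30 (adjusted p = 0.322). H2-DMa and H2-DMb1 were higher in OMP than in Neurog1-Ctrl by 1.09 and 1.5. H2-Ke6, which is the hydroxysteroid dehydrogenase Hsd17b8 and no antigen-presenting molecule, was higher in OMP by 0.90.

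H2-M2 and H2-Q1, both class Ib genes, were higher in Sox2GBC than in Sus. H2-M2 had levels of 7.90, 7.26 and 7.82 in Sox2GBC and 6.30, 6.83 and 6.71 in OM and was not detected on any Neurog1-Ctrl, OMP or Sus array. Neurog1-Ctrl was at least 3.303-fold and Sus at least 3.82-fold below Sox2GBC (adjusted p = 3.64e-05 for Sus). Its excess over OM, 1.05 ± 0.37 (adjusted p = 0.0372), was lost without any 1 of the OM arrays or Sox2GBC replicate 1 or 3, with 0.97 (adjusted p = 0.114) without Sox2GBC replicate 3. H2-Q1 was 6.88, 6.82 and 7.64 in Sox2GBC and 5.26, 5.56 and 6.18 in Sus, a difference of -1.45 ± 0.42 (adjusted p = 0.00723). Among OM arrays it was detected on the third alone, and the excess of Sox2GBC over OM, 1.30 ± 0.42 (adjusted p = 0.0231), was lost without OM replicate 1 or 2 or Sox2GBC replicate 3, at 0.87 (adjusted p = 0.12) without OM replicate 1.

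H2-M10.3 and H2-M10.6 were detected in neuronal sorts and whole mucosa. H2-M10.3 had levels of 6.08, 5.77 and 6.14 in Neurog1-Ctrl, 7.99, 6.23 and 7.47 in OMP and 6.90, 7.58 and 6.72 in OM, and was not detected on any Sox2GBC or Sus array. Sus was at least 2.83-fold below OMP, and H2-M10.3 was at least 2.04-fold lower in Sox2GBC than in OM (adjusted p = 0.00267 for the latter). Its rise of 1.23 from Neurog1-Ctrl to OMP was not called without OMP replicate 1, at 0.85 (adjusted p = 0.0593). H2-M10.6 had levels of 6.76, 6.51 and 6.89 in Neurog1-Ctrl, 6.25, 5.46 and 7.01 in OMP and 5.51, 6.83 and 6.03 in OM, and it too was undetected in Sox2GBC and Sus. It was at least 1.599-fold higher in Neurog1-Ctrl than in Sox2GBC (adjusted p = 0.0016) and at least 1.427-fold lower in Sus than in OMP.

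The remaining class Ib genes were detected on few arrays of the sorts. H2-M3, which presents formylated peptides of bacteria and mitochondria, was detected on all OM arrays (5.61, 6.10 and 6.23) and 2 Sus arrays (6.76 and 6.26), and on no array of the other sorts. H2-T10 by its brightest probe was 5.96, 6.34 and 6.77 in Sus and not detected in OM, and that probe was at least 1.641-fold higher in Sus. The probe met the filter on detection only with the Sus arrays, so that value is a description. A second H2-T10 probe, detected on 1 array of each group, gave 0.74, and the third, below the filter, had means of 5.09 in Sus and 5.10 in OM, so the H2-T10 value depends on the probe. H2-Q8 was 5.86, 6.93 and 6.39 in Sus and not detected in OMP, at least 1.72-fold higher in Sus. H2-Q7 was 7.68, 7.84 and 6.46 in Sus and 5.39, 5.16 and 5.65 in OMP, where 1 array detected it, higher in Sus by 1.93. H2-M10.1 was called in none of the comparisons between mucosal groups. H2-Q6 was detected on 2 Sus arrays and on Sox2GBC replicate 2, where it reached 7.37. Not tested were H2-Bl, H2-M1, H2-M10.2, H2-M10.4, H2-M10.5, H2-M11, H2-M5, H2-M9, H2-Q10, H2-Q2, H2-T18, H2-T22, H2-T24 and H2-T3. Ctss, H2-Ob and Nlrc5 were not tested in mucosa either.

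Bulb removal deprives sensory neurons of their target and is followed by their loss and by new neurons. In the Neurog1 line 1 of the 32 genes was lower and 0 higher after the lesion, where 0.379% of all genes were called, 0.194% lower and 0.185% higher, with medians of 0.20 and -0.02. In the OMP line 3 were lower and 1 higher, with 8.66% of all genes called, 4.41% lower and 4.25% higher, and medians of -0.03 and -0.01. The members called made up 3.12% and 12.5% of those tested, which rest on 1 and 4 genes. In the OMP line 2 were higher and 3 lower with cyclic loess, and 0 higher and 4 lower with scaling to a common median.

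B2m rose in OMP cells after the lesion. Its levels were 9.39, 9.84 and 9.61 in OMP and 10.87, 10.93 and 11.16 in OMP-OBX, without overlap. B2m was higher by 1.37 ± 0.25 (adjusted p = 0.0015), and its other tested probe gave 1.10. With scaling to a common median alone the call was lost, at 1.22 (adjusted p = 0.0518). In the Neurog1 line B2m was 10.87, 10.98 and 11.00 in controls and 11.06, 10.75 and 11.11 after the lesion, a difference of 0.02 (adjusted p = 0.988). The difference between both lesion effects was 1.35 ± 0.36 and was not called (adjusted p = 0.0581).

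Tap2 fell in the same OMP cells. It was 9.08, 8.36 and 8.61 in OMP and 6.56, 6.73 and 6.90 in OMP-OBX, a difference of -1.95 ± 0.30 (adjusted p = 0.000245). In the Neurog1 line it was 6.85, 6.81 and 6.78 in controls and 6.78, 5.95 and 5.80 after the lesion, a difference of -0.63 (adjusted p = 0.475). The levels of both genes in OMP-OBX thus overlapped those of Neurog1-Ctrl. The difference between the lesion effects on Tap2 was -1.32 ± 0.42 (adjusted p = 0.118).

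H2-M10.6 and H2-M10.3 went undetected after the lesion. H2-M10.6 was 6.25, 5.46 and 7.01 in OMP and 4.74, 4.73 and 4.65 in OMP-OBX, where no array detected it, at least 1.383-fold lower (adjusted p = 0.00534). In the Neurog1 line it went from 6.76, 6.51 and 6.89 to 4.75, 4.89 and 4.75, again with no array detected, at least 1.754-fold lower (adjusted p = 0.0138). No other member was called there, and that call was lost without Neurog1-Ctrl replicate 1 or 3 or Neurog1-OBX replicate 1 or 3, with adjusted p values of 0.0882, 0.0716, 0.0607 and 0.0716. H2-M10.3 was 7.99, 6.23 and 7.47 in OMP and 5.56, 4.89 and 5.09 in OMP-OBX, at least 2.744-fold lower (adjusted p = 0.000499), and its 3 other tested probes were each detected on 2 OMP arrays and on 0 OMP-OBX arrays. In the Neurog1 line H2-M10.3 was detected on 2 control arrays and on 0 arrays after the lesion and was not called (adjusted p = 0.26). H2-M10.1 was 5.31, 5.96 and 5.5 in Neurog1-Ctrl and 6.44, 5.92 and 6.08 in Neurog1-OBX, a difference of 0.56 ± 0.25 that was not called (adjusted p = 0.463). It was detected on 0 OMP arrays and on all 3 OMP-OBX arrays, at 6.15, 6.13 and 5.81, and was not called there either (adjusted p = 0.184). None of the 32 genes was called for the difference between both lesion effects, where 1.97% of all genes were called, 1.27% higher and 0.699% lower.

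Class II genes were not called after the lesion. Cd74 was 7.0, 8.27 and 7.40 in Neurog1-Ctrl and 9.49, 8.27 and 9.03 in Neurog1-OBX, a difference of 1.37 (adjusted p = 0.229), and H2-Ab1 differed by 1.14 (adjusted p = 0.604). In the OMP line Cd74 differed by 0.58 and H2-Ab1 by 0.54 (adjusted p = 0.509 and 0.72). Of the 16 myeloid markers 0 were called in either line, and their summed intensity was 1358 to 2691 in Neurog1-Ctrl, 1992 to 3745 in Neurog1-OBX, 2018 to 4160 in OMP and 2671 to 3379 in OMP-OBX. H2-M2 was not detected in OMP and reached 7.03 and 5.99 on 2 of the OMP-OBX arrays, at least 1.556-fold higher and not called (adjusted p = 0.0503).

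Marker sums of the OMP sort differed after the lesion. Summed markers of mature neurons were 207900 to 212800 in OMP and 161100 to 173600 in OMP-OBX, and those of globose basal cells and precursors 2340 to 4394 and 8091 to 10990, both without overlap. In the fit 2 of 10 mature neuron genes were lower, with a median of -0.48, and 1 of 7 genes of globose basal cells and precursors was higher, with a median of 0.10. Insm1, a transcription factor of new neurons, was higher by 2.09 ± 0.40 and Adcy3, the olfactory adenylyl cyclase, lower, at -1.26 ± 0.27 (adjusted p = 0.00203 and 0.00537). The part of that difference in the values of B2m, Tap2, H2-M10.3 and H2-M10.6 was not tested. Outside the family 1 of 29 pathway genes and 1 of 18 interferon genes were called in the OMP line, beside 8.66% of all genes. In the Neurog1 line 0 were called, beside 0.379% of all genes. The called genes were Psme1, 0.76 ± 0.18 (adjusted p = 0.0111), and Oasl2, 1.52 ± 0.39 (adjusted p = 0.0176). Psme1 was lost without OMP replicate 3, OMP-OBX replicate 1 or OMP-OBX replicate 3 (0.65 and an adjusted p of 0.052 without the first), and Oasl2 was lost without OMP replicate 1 or OMP-OBX replicate 3 (0.97 and an adjusted p of 0.12 without the latter).

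**Figure D5:**
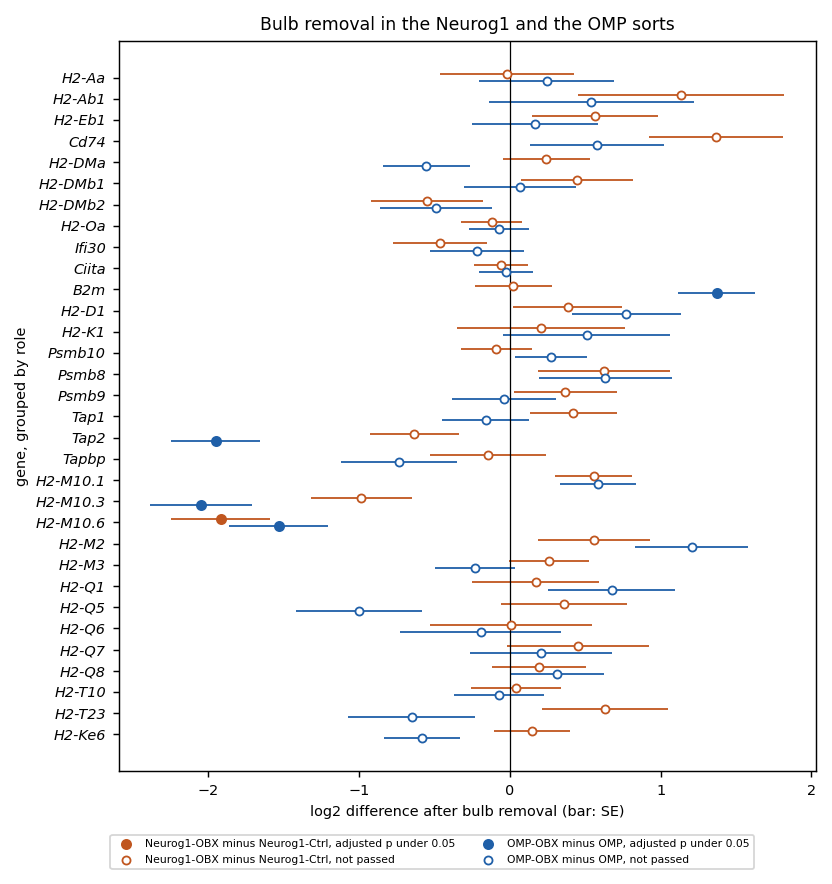
Log2 difference ± SE of tested genes after bulb removal (horizontal axis) in the Neurog1 and OMP lines, with genes as rows and filled points for adjusted p under 0.05. B2m at 1.37, Tap2 at -1.95, H2-M10.3 and H2-M10.6 are filled in the OMP line, and only H2-M10.6 in the Neurog1 line. Points of genes that no array of a group detected, such as H2-M10.6 after the lesion, are fitted values for which only bounds on the fold hold.

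Against the reference RNA of cultured cell lines, class II chains were higher in OM and many class I genes lower. On all 24 arrays 34 of the genes were tested, 12 higher and 17 lower in OM, where 66.2% of all 12495 genes were called, 34.4% higher and 31.8% lower, with medians of -0.79 and 0.05. H2-Ab1 was 11.45, 11.99 and 12.22 in OM and, by this brightest probe, not detected in mREF, at least 69.13-fold higher in OM (adjusted p = 3.11e-09). Another H2-Ab1 probe was detected on 1 mREF array and gave a difference of 5.89. H2-Aa was at least 14.96-fold higher (adjusted p = 4.39e-10). Cd74, in contrast, was 10.74, 10.87 and 11.02 in mREF and 11.43, 12.48 and 12.90 in OM, a difference of 1.39 ± 0.42 (adjusted p = 0.00626). Of the loading genes, Ifi30 was lower in OM, at -1.91 ± 0.29 (adjusted p = 6.39e-06), and H2-DMb1 was not called (0.69, adjusted p = 0.0932). The protease gene Ctss was lower as well, at -1.46 ± 0.31, but it met the filter on detection only with the mREF arrays. The counts above also hold Nlrc5, which met it only with mREF, and Ciita and H2-Oa, which met it only with OM. The values of these genes are a description. B2m was 13.98, 13.96 and 13.93 in mREF and 11.07, 11.72 and 12.19 in OM, a difference of -2.29 ± 0.22 (adjusted p = 8.22e-09).

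Of the 6 genes of peptide supply 5 were lower in OM than in the reference, and of 12 class Ib genes 7 were lower, 3 higher and 2, H2-Q1 and H2-M10.1, not called. Psmb8 was 10.72, 11.25 and 10.91 in mREF and 6.41, 7.92 and 8.61 in OM, a difference of -3.31 ± 0.42 (adjusted p = 4.31e-07). The lower Psmb9 of OM, -0.79 (adjusted p = 0.0372), was lost without OM replicate 1 or any mREF replicate, at -0.47 (adjusted p = 0.216) without OM replicate 1, and also with cyclic loess, scaling to a common median or no filter. H2-M3 ran from 9.92 to 10.04 in mREF and 5.59, 6.07 and 6.20 in OM, a difference of -4.03 ± 0.25 (adjusted p = 4.2e-12). H2-Q6 was not detected in OM and was at least 30.69-fold lower there (adjusted p = 5.54e-09). Nlrc5, the regulator of class I genes, was not detected in OM either and was at least 3.333-fold lower. Nlrc5 met the filter on detection through the mREF arrays alone, so it had to be lower in OM, and that value is a description. H2-M2, H2-M10.3 and H2-M10.6 went the other way, not detected in mREF and at least 1.758-fold, 2.405-fold and 1.251-fold higher in OM (adjusted p = 0.000123, 1.15e-06 and 0.00107). H2-K1 differed by 0.02 and H2-D1 by -1.41 with their brightest probes, but each had another probe that was detected on 3 mREF arrays and 0 OM arrays, so their values against the reference depend on the probe.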

How the data were processed

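Illumina bead arrays with 45281 probes were used for 24 samples. The deposited table without normalization holds background-subtracted intensity values and a detection p-value per probe and array, and the deposited series matrix holds the authors' own linear intensity values, by a method not given in the sources used here. GenomeStudio is named in the submitters' processing notes, without a version. The third OMP replicate is in a column numbered 4. Probes with 1 gene symbol in the platform annotation, 34885, were used, 18 with several and 10378 with none were not.

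The detection p-values served for background correction (normexp, offset 16), followed by quantile normalization and log2 transformation. A probe had to be detected, at p under 0.01, on 3 or more arrays. The brightest such probe stood for its gene. Groups were compared with limma 3.58.1 in R 4.3.3, over the 21 mucosal arrays (11870 genes, 14 residual degrees of freedom) or, for mREF, all 24 (12495 genes), with Benjamini-Hochberg adjustment over all genes. The fit was tested on simulated data. A lower bound sets the brighter group's mean against, per array, the higher of the dim probe's level and the lowest level among detected probes.

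Every gene of the family could be named. From the other lists, up to 4 called genes with the largest difference and 2 others per comparison could be, with the 8 genes most like the class II chains. The members and lists were chosen with earlier results of these data known. Deviations from the group means, compared at equal replicate numbers, correlated at 0.53, 0.11 and 0.25 in OMP against OM. These groups came from different mouse lines, so equal numbers are not paired animals. Replicate 1 of OM, OMP, Sus and mREF had the lowest array noise, and what equal numbers share was not tested. Alternatives were other background corrections, scalings, filters and probe summaries, the authors' values, fits of the compared groups alone, blocks on replicate number or array noise, and leaving out each array. Figures were drawn with matplotlib 3.10.9.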

Additional observations from a re-analysis of the deposited data

How the results depend on the processing

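Of 170 called differences of the family's genes, 124 kept their call under every setting run, 46 lost it under at least 1 and 0 reversed. No setting used another probe alone. Another probe had the opposite sign, for example, for H2-DMb2 in Neurog1-Ctrl against Sox2GBC (-0.84 beside 1.24). The same held for H2-K1 in Neurog1-Ctrl against OM (0.16 beside -1.65). Median scaling ended 14 calls, fitting the compared groups alone 18, the authors' values 9, no filter and the block on noise class 8 each, no background correction 6, cyclic loess 5 and the mean of all probes 3. Median scaling put the median of all genes at -0.26 in Sox2GBC, -0.16 in Sus against OM, 0.38 in Neurog1-Ctrl against Sox2GBC, -0.21 in Sus against OMP, -0.21 and -0.19 after the lesion in the Neurog1 and OMP lines and 0.24 in OM against mREF, and cyclic loess put it at 0.14 in OMP against Neurog1-Ctrl. A stricter filter ended 0 of the 146 calls it could test. Without OM replicate 3, 20 of 104 calls were lost, without OM replicate 2, 19 of 104, and without Sox2GBC replicate 3, 14 of 52. Leaving out 1 array at a time gave 15 to 22 called genes for Sox2GBC, 17 to 25 for Neurog1-Ctrl, 12 to 20 for OMP and 9 to 14 for Sus against OM. It gave 16 to 21 for Sus against Sox2GBC, 5 to 8 for Neurog1-Ctrl against Sox2GBC, 9 to 10 for OMP against Neurog1-Ctrl and 16 to 21 for Sus against OMP. After the lesion it gave 0 to 1 in the Neurog1 line and 4 to 5 in the OMP line, 0 to 1 for the difference of the lesion effects and 27 to 30 for OM against mREF.

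With only the compared arrays, 2 genes were called in Neurog1-OBX against its control. For the difference of the lesion effects, 1 gene, B2m, was called without background correction (1.30, adjusted p = 0.049), with the authors' values (1.24, 0.0487) and with the noise class as a block (1.19, 0.0425), and H2-M10.3 without OMP replicate 2 (-1.57, 0.0348). The causes were not tested. With the replicate block the counts, in the order of the comparisons above, were 24, 23, 18, 14, 20, 10, 10, 19, 1, 4, 0 and 30, and 1 call was lost, Ifi30 in Neurog1-Ctrl against OM (-0.81, adjusted p = 0.0513). In OMP against OM, where deviations at equal replicate numbers correlated, the block changed no call. Of 30 named differences of other genes 27 kept their call throughout. Genes near the detection limit have only bounds, and 3 arrays a group limit the precision.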
